A study of Mus musculus with 8 samples.

Results

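The keratins, with the epithelial splicing factors and the basal regulator that accompany them, were followed through 2 metastatic sublines of a mouse mammary carcinoma line and the parental line itself. The genes were chosen by name: the simple-epithelial keratins Krt7, Krt8, Krt18 and Krt19, the basal keratins Krt5, Krt14 and Krt17, the splicing regulators Esrp1 and Esrp2, and the transcription factor Trp63. They make up 10 of the 19057 genes named by the array annotation and 13 of its 45281 probes. Krt8 was higher in both sublines, 8.18-fold in D2A1-m1 and 9.56-fold in D2A1-m2 after normalization here, and by a smaller amount on the scale of the deposited processed values (log2 differences of 1.77 for D2A1-m1 and 1.91 for D2A1-m2). Its usual filament partner Krt18 did not follow it and fell 2.01-fold in D2A1-m2. Esrp2 was called lower in both sublines by 1 of its 2 probes, which lay near background there, and was not called on the deposited processed values. All the basal keratins, Krt19 and Esrp1 were at background on every array.

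Keratins are intermediate filament proteins that assemble as pairs of an acidic type I and a basic type II chain. Krt8 (type II) and Krt18 (type I) form the filaments of simple epithelia, including the luminal cells of the mammary gland, whereas Krt5 and Krt14 mark its basal layer, where the p63 protein encoded by Trp63 maintains the basal programme. Esrp1 and Esrp2 are RNA-binding proteins of epithelial cells that favour the epithelial exons of transcripts such as Fgfr2, Cd44, Ctnnd1 and Enah, and they are typically lost when cells take on a mesenchymal state.

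RNA came from cultured cells of D2A1-m1 (2 cultures), D2A1-m2 (3 cultures) and D2A1 (3 cultures), which the study's methods describe as independent biological replicates. All 3 lines share the BALB/c-derived D2A1 background and none was treated. Each subline was selected separately by growing D2A1 cells in a mammary fat pad, culturing the tumour cells from the lungs and repeating tail vein inoculation and lung recovery, with a single mouse at each step, so that every subline stands for 1 lineage of selection. The arrays were 1-colour Illumina MouseWG-6 v2.0 bead arrays. They were processed as 2 batches with every line present in both: D2A1-m1 replicate 1, D2A1-m2 replicate 1 and D2A1 replicates 1 and 2 in batch 1, and the rest in batch 2.

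Each array reports a mean bead intensity for every probe with a detection p against its own negative control beads, and a probe was taken as detected at a p of at most 0.01. Between 13419 and 14942 probes were detected on each array, and the dimmest of these had intensities of 71.4 to 77.1. Values on the log2 scale below are background-corrected, quantile normalized intensities with an offset of 16. A gene was called at an adjusted p under 0.05 and at least 1.5-fold in a limma fit of all 8 arrays with terms for line and batch, with p-values adjusted by Benjamini-Hochberg over the 9017 genes that had a detected probe. Differences therefore come from the fit and depart slightly from the gap between plain line means. The array readout tells nothing of protein, and in a whole culture fewer cells with a transcript cannot be told apart from less of it per cell.

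Markers were read to place the lines themselves. Of the mammary epithelial markers, Epcam, Cdh1 and Cldn3 were not detected on any array, and Cldn7, a tight junction claudin, was detected on 4 arrays with differences of 0.11 in D2A1-m1 and 0.01 in D2A1-m2. Of the 6 mesenchymal markers, Vim, Fn1, Zeb1, Zeb2 and Snai2 were detected on all 8 arrays and Cdh2 on 5. In D2A1-m1, 2 of the 6 were called lower than in D2A1, as were 6.84% of all tested genes. These were Fn1 at -1.08 (limma, adjusted p = 0.013) and Vim at -0.61 (limma, adjusted p = 0.0112). Both calls were lost without D2A1-m1 replicate 1, and the other Fn1 probe was not called, at -0.29. None of the 6 was called in D2A1-m2. Their summed level was 4463 to 4694 in D2A1-m1, 5680 to 6500 in D2A1-m2 and 6195 to 7957 in D2A1. This sum is of unlogged levels and mostly follows Vim, so it does not describe the 6 as a set. The mean log2 level of Vim was 11.94 in D2A1-m1, 12.35 in D2A1-m2 and 12.57 in D2A1. The keratins described below were thus read in cells where Epcam, Cdh1 and Cldn3 were not above background on any array.

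Detection split the 10 genes evenly. In 5 of them (Krt19, Krt5, Krt14, Krt17 and Esrp1) no array passed the detection limit, with intensities from 43.3 to 58.3 and a lowest detection p of 0.151. The remaining 5 (Krt7, Krt8, Krt18, Esrp2 and Trp63) had at least 1 detected array and could be tested, although Krt7 and Trp63 passed through a single array each. By line, 3 of the 13 probes were detected on at least 1 D2A1-m1 array, 3 on at least 1 D2A1-m2 array and 6 on at least 1 D2A1 array. The additional D2A1 probes were all detected on D2A1 replicate 3 alone.

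**Figure D1:**
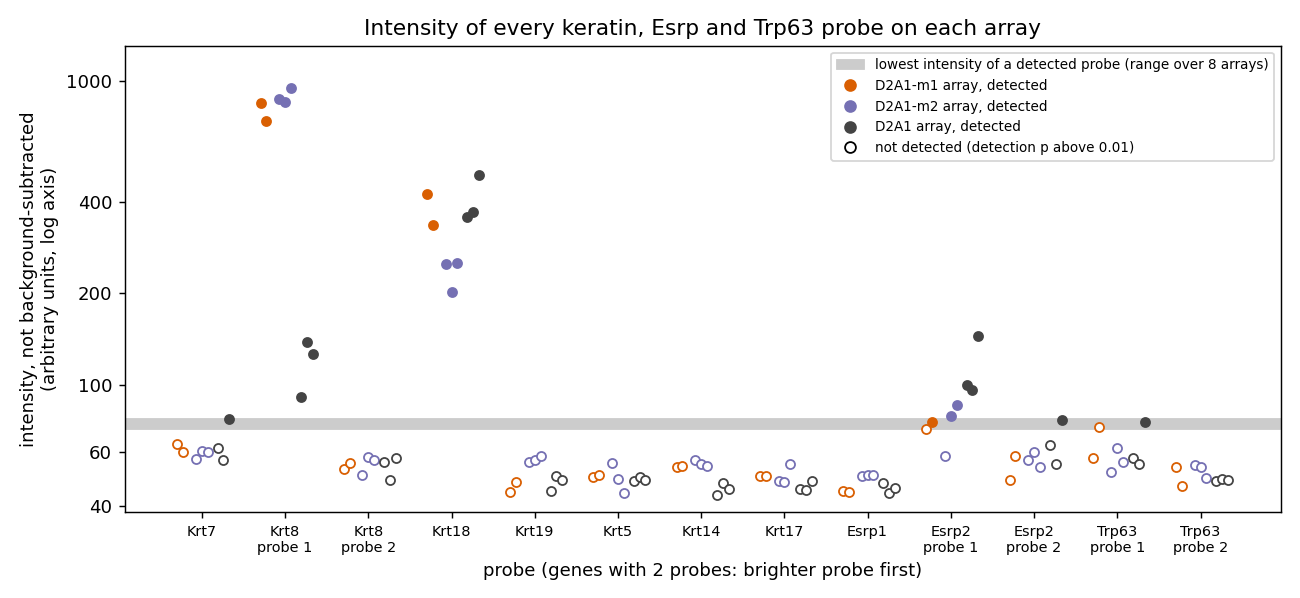
Intensity before background correction (log axis, arbitrary units) of the 13 probes on each of the 8 arrays, with D2A1-m1, D2A1-m2 and D2A1 side by side for each probe; filled points are detected and the grey band spans the lowest detected intensities of the arrays (71.4 to 77.1). Krt8 probe 1, Krt18 and Esrp2 probe 1 clear the band on several arrays, whereas 7 probes stay between 43.3 and 58.3, and heights of different probes are not comparable.

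Among the 5 tested genes, 1 was called higher in D2A1-m1 than in D2A1 (Krt8, with 7.72% of all tested genes called higher) and 1 lower (Esrp2, with 6.84% called lower). In D2A1-m2, 1 was called higher than in D2A1 (Krt8, against 8.87% of all tested genes) and 2 lower (Krt18 and Esrp2, against 7.34%). Between D2A1-m1 and D2A1-m2 none was called by limma, where 2.00% of all genes were called higher in D2A1-m1 and 2.27% lower. Between the sublines Krt18 had an unadjusted p of 0.00489 by limma and of 0.0376 by the methods' t-test. Trp63 had an unadjusted p of 0.0357 by limma, but no array of either subline detected it, so background was compared with background. After adjustment the methods' t-test called none of the tested genes between the sublines. This t-test has the form given in the study's methods but was run on the values normalized here with the batch removed. The tested genes are those that a detection filter let through, and no count over them speaks for all 10. Both comparisons with D2A1 use the same D2A1 arrays.

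Krt8, the type II keratin of simple epithelia, showed the widest difference. Its normalized level was 9.72 and 9.23 on the D2A1-m1 arrays, 9.87, 9.45 and 9.65 on the D2A1-m2 arrays, and 6.06, 6.95 and 6.45 on the D2A1 arrays. Every subline array lay above every D2A1 array. The raw intensities were 847 and 738 in D2A1-m1, 868.2, 847.1 and 942.6 in D2A1-m2, against 90.9, 138.2 and 125.8 in D2A1, where the probe was still detected on all 3 arrays. Krt8 thus had a low but measurable level in the parental line.

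On the log2 scale Krt8 rose by 3.03 (SE 0.24) in D2A1-m1, with an adjusted p of 4.09e-05 in the limma fit. In D2A1-m2 it rose by 3.26 (SE 0.22), with an adjusted p of 1.64e-05 from limma. On the deposited processed values the differences were 1.77 for D2A1-m1 and 1.91 for D2A1-m2, and both were still called by limma. The increases as normalized here ranked 22 (D2A1-m1) and 9 (D2A1-m2) among the 9017 genes. The sublines were not told apart by Krt8, with a difference of -0.22 between D2A1-m1 and D2A1-m2 and a 95% interval of -0.76 to 0.31. Within batch 1 the differences from D2A1 came to 3.21 for D2A1-m1 and 3.36 for D2A1-m2, and within batch 2 to 2.78 for D2A1-m1 and 3.10 for D2A1-m2. The gene has a second probe, which was not detected on any array (intensities of 48.5 to 57.8), so the rise rests on 1 probe.

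Krt18, the type I partner, was detected on all 8 arrays and took another course. Its normalized level was 8.64 and 8.003 in D2A1-m1, 7.92, 7.19 and 7.56 in D2A1-m2, against 8.62, 8.65 and 8.74 in D2A1. The D2A1-m2 arrays all lay below the other lines, while the D2A1-m1 arrays overlapped D2A1 at replicate 1. Raw intensities gave the same order for D2A1-m2, at 249.8, 202.2 and 251.7, against 354.6, 368.7 and 490.2 in D2A1.

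Krt18 fell by 1.00 (SE 0.18) in D2A1-m2, with an adjusted p of 0.00376 in the limma fit. On the deposited processed values that difference was -0.61, and it was still called. In D2A1-m1 its difference from D2A1 was -0.29 (SE 0.19), with an adjusted p of 0.308 by limma. The difference between the sublines was 0.71 (D2A1-m1 minus D2A1-m2, 95% interval 0.28 to 1.15), which missed the limit after adjustment (limma, adjusted p = 0.0728) and passed it under 6 alternative settings, among them without D2A1 replicate 2 (adjusted p = 0.0465) and without D2A1 replicate 3 (adjusted p = 0.0462). For D2A1-m1 the batches gave differences of 0.0045 in batch 1 and -0.73 in batch 2, and each rests on a single D2A1-m1 array. For D2A1-m2 the differences were -0.72 in batch 1, where Krt18 was not called (limma, adjusted p = 0.235), and -1.37 in batch 2. A test of the change in difference between batches gave unadjusted p-values of 0.0614 for D2A1-m1 and 0.0728 for D2A1-m2 in limma, and 0 genes passed it after adjustment in any comparison (222, 317 and 190 genes did at an unadjusted p under 0.05).

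Krt8 and Krt18 are neighbours on chromosome 15 in the RefSeq annotation (GRCm38.p6), where no other protein-coding gene lies between them. They stand at one edge of the type II keratin cluster, and Krt18 is the single type I gene there. The 5 keratin genes on the far side of Krt8 (Krt77, Krt76, Krt4, Krt79 and Krt78) were not detected on any array. Beyond Krt18 lies Eif4b, a translation initiation factor, with a difference of 0.10 for D2A1-m1 and 0.02 for D2A1-m2. Tns2, the next gene, was not detected. Igfbp6, a binding protein for insulin-like growth factors that lies further along and was looked up after the values of Krt8 were seen, rose by 3.54 in D2A1-m1 (limma, adjusted p = 9.62e-07) and by 2.62 in D2A1-m2 (limma, adjusted p = 4.12e-06). Spryd3, which lies between Tns2 and Igfbp6, was not called, at 0.44 for D2A1-m1 and 0.43 for D2A1-m2.

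The sequences before the starts of both genes are shown because these neighbours had opposite differences in D2A1-m2. The RefSeq promoter table (GRCm38.p6) held 5 of the 10 genes. In it the 250 bases before the start were searched on both strands for CACCTG (read as CAGGTG on the other strand), the E-box that the repressors encoded by Snai1 and Zeb1 bind. Capitals mark the match in each sequence, chr15:102004343-102004592 on the minus strand for Krt8 and chr15:102027966-102028215 on the plus strand for Krt18.
Krt8: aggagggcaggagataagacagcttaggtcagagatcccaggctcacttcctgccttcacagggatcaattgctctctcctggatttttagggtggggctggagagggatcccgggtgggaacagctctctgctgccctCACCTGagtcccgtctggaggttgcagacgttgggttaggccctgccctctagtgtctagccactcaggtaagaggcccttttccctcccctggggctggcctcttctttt
Krt18: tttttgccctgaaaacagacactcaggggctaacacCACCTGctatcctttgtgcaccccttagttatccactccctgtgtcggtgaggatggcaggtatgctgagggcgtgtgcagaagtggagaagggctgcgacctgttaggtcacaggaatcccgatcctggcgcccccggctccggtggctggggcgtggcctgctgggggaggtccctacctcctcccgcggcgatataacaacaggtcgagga
Each window held 1 match, starting 111 bases before the start of Krt8 and 214 bases before that of Krt18. Such a match was present in 17.2% of the 32851 windows of the table, and in 4 of the 5 genes found there (Krt5 and Krt7 as well). A match describes letters and was not tested as a binding site.

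**Figure D2:**
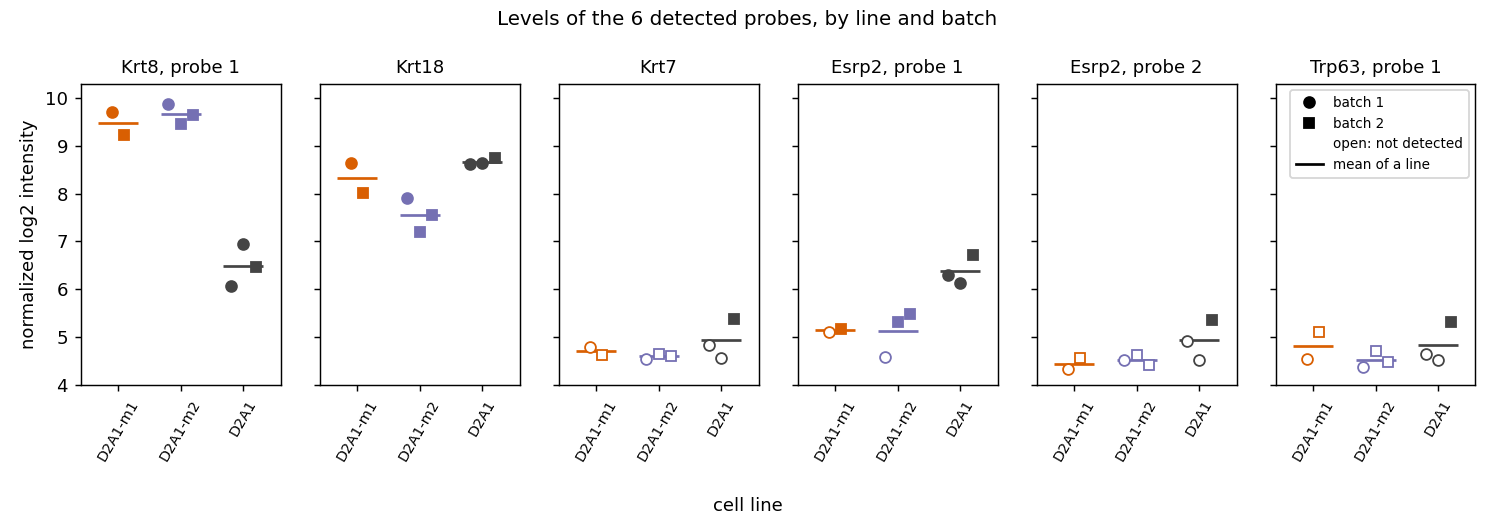
Normalized log2 intensity of the 6 detected probes on each array of D2A1-m1, D2A1-m2 and D2A1 (circles batch 1, squares batch 2, open symbols not detected, bars the mean of a line). Krt8 stands about 3 log2 units higher in both sublines, Krt18 is lowest in D2A1-m2, and Esrp2 probe 1 is lower in both sublines.

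Krt7, a type II keratin of ducts and simple epithelia, was detected on D2A1 replicate 3 alone (detection p of 0.00214, intensity 77.1). Its normalized level was 4.79 and 4.62 in D2A1-m1, 4.53, 4.65 and 4.61 in D2A1-m2, against 4.84, 4.57 and 5.38 in D2A1. The lines overlapped, and limma gave adjusted p-values of 0.351 for D2A1-m1 and 0.114 for D2A1-m2 against D2A1. Because the sublines have only an upper limit here, and that limit lay above the D2A1 mean, no fold is given.

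Krt19, a type I keratin of simple epithelia, had intensities of 44.5 and 47.9 in D2A1-m1, 55.8, 56.5 and 58.3 in D2A1-m2, against 44.7, 49.9 and 48.6 in D2A1. None was detected, although the D2A1-m2 values all lay above the rest. The basal keratins were as dim. Krt5 ranged from 44 to 55.4 over the arrays, its type I partner Krt14 from 43.3 to 56.3, and Krt17, a keratin of basal and injured epithelium, from 45 to 54.8. When the detection filter was dropped and 19057 genes entered the fit, none of these 4 keratins was called in any comparison. These probes show only that the transcripts were not above background on these arrays.

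Esrp2 is the epithelial splicing regulator that could be read. Its brighter probe had a normalized level of 5.11 and 5.18 in D2A1-m1, 4.58, 5.31 and 5.49 in D2A1-m2, against 6.30, 6.12 and 6.72 in D2A1. All subline arrays lay below all D2A1 arrays. It was detected on 1 of the 2 D2A1-m1 arrays, on 2 of the 3 D2A1-m2 arrays and on all 3 D2A1 arrays, with raw intensities of 71.2 and 75.1 in D2A1-m1, 58.4 to 85.9 in D2A1-m2 and 95.7 to 144.6 in D2A1.

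By this probe Esrp2 fell by 1.32 (SE 0.17) on the log2 scale in D2A1-m1, with an adjusted p of 0.000946 in limma. In D2A1-m2 it fell by 1.42 (SE 0.16), with an adjusted p of 0.00036 in limma. The sublines had a difference of 0.10, with a 95% interval of -0.29 to 0.49. Within batches the differences from D2A1 in D2A1-m1 were -1.102 (batch 1, not called, limma adjusted p = 0.103) and -1.54 (batch 2), against -1.63 (batch 1) and -1.32 (batch 2) for D2A1-m2. On the scale of the deposited processed values the differences were -0.35 in D2A1-m1 and -0.36 in D2A1-m2, with adjusted p-values from limma of 0.0103 and 0.00461, and Esrp2 was not called there because both are under 1.5-fold.

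The dimmer Esrp2 probe was detected on D2A1 replicate 3 alone. Its normalized level was 4.33 and 4.55 in D2A1-m1, 4.51, 4.63 and 4.42 in D2A1-m2, against 4.92, 4.51 and 5.36 in D2A1. In a fit over all 16462 kept probes it was not called, with adjusted p-values of 0.0699 for D2A1-m1 and 0.0569 for D2A1-m2 in limma. The fall of Esrp2 therefore rests on the brighter probe. Esrp1, its epithelial paralogue, had intensities of 44 to 50.5 and was not detected.

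**Figure D3:**
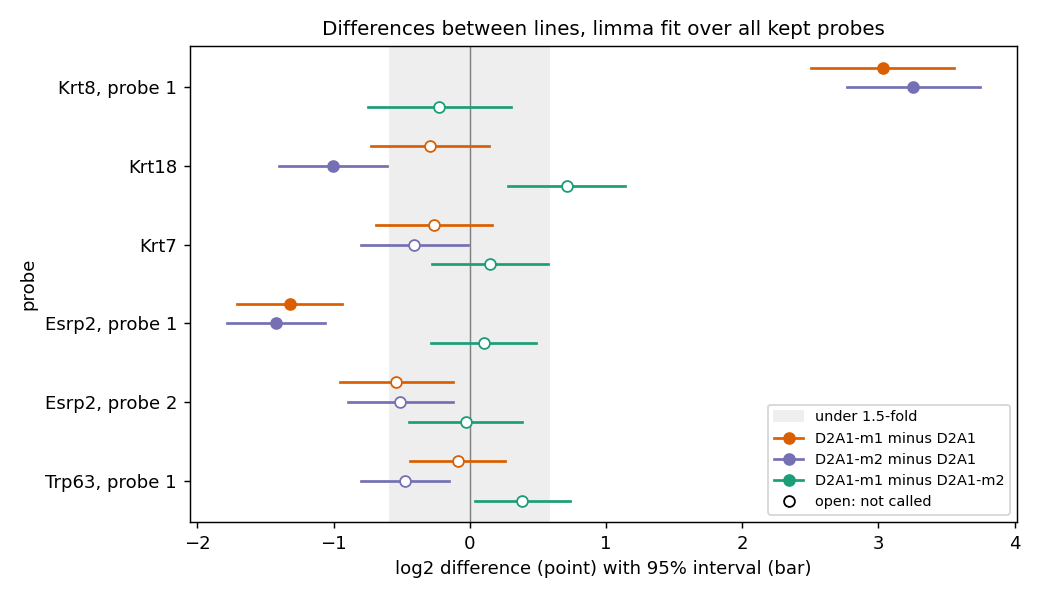
Log2 differences between lines (points) with 95% intervals (bars) for the 6 detected probes from the limma fit over all kept probes; filled points were called and the grey zone is under 1.5-fold. Against D2A1, Krt8 lies near 3 in both sublines, Krt18 is called in D2A1-m2 only, and the Esrp2 probes differ in size but lie below 0. Values of Krt7, Trp63 and Esrp2 probe 2 in the sublines are those of undetected probes.

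Trp63, whose product p63 drives the basal programme, was detected on D2A1 replicate 3 alone by 1 of its 2 probes (detection p of 0.00321). That probe had normalized levels of 4.54 and 5.10 in D2A1-m1, 4.38, 4.70 and 4.47 in D2A1-m2, against 4.64, 4.52 and 5.32 in D2A1. D2A1-m1 replicate 2 fell just outside the limit, at a detection p of 0.0128, and would count as detected at a limit of 0.05. The lines overlapped and Trp63 was not called in any comparison (limma, adjusted p = 0.714 in D2A1-m1, and 0.0361 with under 1.5-fold in D2A1-m2). No fold is given, for the reason stated for Krt7. Its other probe was not detected, at 46.5 to 54.2.

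**Figure D4:**
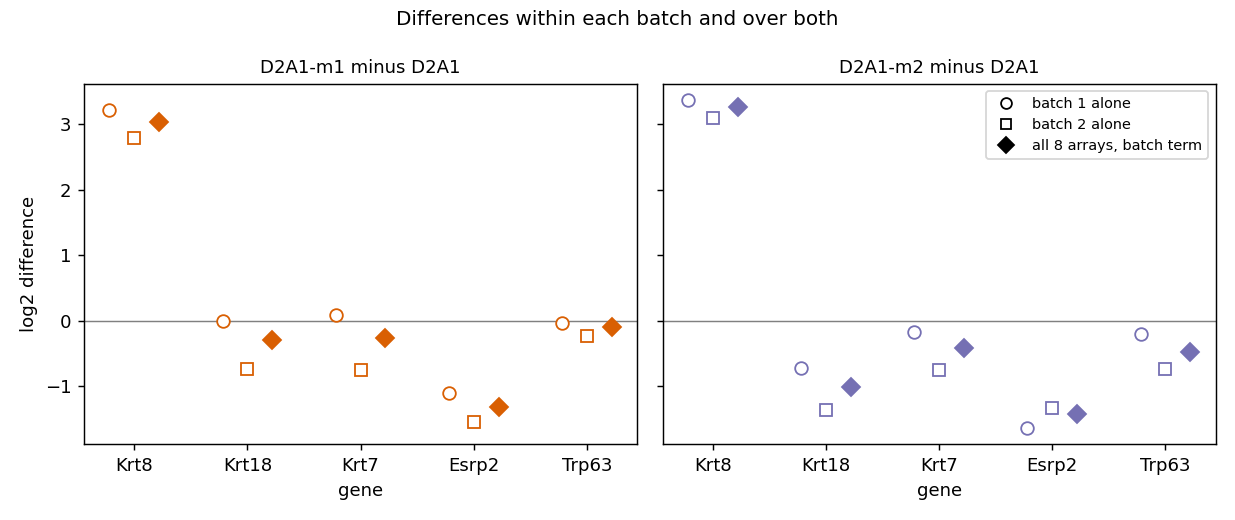
Log2 difference from D2A1 in batch 1 alone (circles), in batch 2 alone (squares) and over all 8 arrays with a batch term (diamonds), for D2A1-m1 (left) and D2A1-m2 (right). Krt8 and Esrp2 keep their direction in each batch, whereas Krt18 in D2A1-m1 lies at 0.0045 in batch 1 and at -0.73 in batch 2.

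The rest of the keratin family was mostly not above background, whereas 9017 of the 19057 named genes had a detected probe. Of 49 keratin genes with a named probe, 4 were detected on at least 1 array and 3 on all 8 arrays, namely Krt8, Krt18 and Krt10. Krt10, a type I keratin best known from the differentiated layers of the epidermis, was the only one detected among the 42 keratins beyond the 7 followed above. It had normalized levels of 8.32 to 8.45 in D2A1-m1, 8.17 to 8.28 in D2A1-m2 and 7.26 to 7.45 in D2A1, with no overlap between the sublines and D2A1. Krt10 rose by 1.03 in D2A1-m1 (limma, adjusted p = 0.000538) and by 0.86 in D2A1-m2 (limma, adjusted p = 0.000835), and was called in neither subline in batch 1 alone. On the deposited processed values it was still called in D2A1-m1, at 0.61, and was not called in D2A1-m2, at 0.48. Krt1, the usual partner of Krt10, and Krt6a, Krt15 and Krt23 were not detected.

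Desmosomes and hemidesmosomes anchor keratin filaments to the membrane. Of 17 such genes on the array 8 could be tested, with a median difference of -0.16 for D2A1-m1 (0.0054 over all genes) and 0.08 for D2A1-m2 (-0.0035 over all genes). Over all tested genes 7.72% were called higher and 6.84% lower in D2A1-m1, against 8.87% and 7.34% in D2A1-m2. These shares also stand beside the counts of the lists that follow, and no list was tested against them. Of the 8 genes here, 2 were called higher and 1 lower in D2A1-m1, and 1 higher and 1 lower in D2A1-m2. The count for D2A1-m1 leaves out Pkp2, which was at -0.54 by the probe used and not called. Its 2 other kept probes are brighter and were called lower there, at -0.67 and -0.63 (limma over all kept probes, adjusted p = 0.00494 and 0.0281). Itgb4, the integrin chain of hemidesmosomes that binds keratin through plectin, was not detected in D2A1 and was at least 1.71-fold higher in D2A1-m1 (limma, adjusted p = 0.00049). It was also called higher in D2A1-m2 (limma, adjusted p = 0.00493), where only a lower limit under 1-fold could be set. On the deposited processed values Itgb4 was called in neither subline, with a difference of 0.38 in D2A1-m1. The D2A1-m2 call was lost in 6 of 24 alternatives, among them no background correction, an offset of 50 and no batch term. Plec, which encodes plectin, was called higher by 0.62 in D2A1-m1 (limma, adjusted p = 0.0447) and was at 0.51 in D2A1-m2 (adjusted p = 0.0547). The Plec call was lost in 14 of 24 alternatives, among them no batch term, both replicate blocks and leaving out D2A1 replicate 1 or 3, either D2A1-m1 array or D2A1-m2 replicate 1 (differences of 0.51 to 0.74 with 1 array left out, limma adjusted p up to 0.242). Pkp4, an armadillo protein of junctions, fell by 0.68 in D2A1-m1 and by 0.89 in D2A1-m2 (limma, adjusted p = 0.00381 and 0.000528). Its call in D2A1-m1 was lost without either D2A1-m1 array (limma, adjusted p up to 0.0593, differences of -0.72 to -0.65), and that of Itgb4 in D2A1-m2 without D2A1-m2 replicate 1 (limma, adjusted p = 0.051).

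The wider epithelial programme was mostly undetected. Of 23 genes of epithelial identity on the array, 18 were not detected, and none of the 5 tested was called in either subline (median difference of -0.04 in D2A1-m1 and 0.01 in D2A1-m2). Among 5 tested repressors of the epithelial state 1 was called, Snai1, a zinc finger repressor of Cdh1, which was called higher by 1.05 in D2A1-m1 and by 0.88 in D2A1-m2 (limma, adjusted p = 0.0169 and 0.0203). Its call was lost in 9 of 24 alternatives for D2A1-m1 and in 7 for D2A1-m2, among them the deposited processed values, the replicate block with the batch term and, in both sublines, leaving out D2A1 replicate 3. Leaving out either D2A1-m1 array (for D2A1-m1) or D2A1-m2 replicate 3 (for D2A1-m2) also ended it. With 1 array left out the Snai1 difference was 0.78 to 1.31 in D2A1-m1 (limma, adjusted p up to 0.136), against 0.57 to 1.11 in D2A1-m2 (adjusted p up to 0.185). Zeb1 (-0.07 in D2A1-m1, -0.09 in D2A1-m2), Zeb2 (0.37 in D2A1-m1, 0.42 in D2A1-m2) and Snai2 (-0.17 in D2A1-m1, 0.43 in D2A1-m2) were not called. The group's median was 0.11 in D2A1-m1 and 0.42 in D2A1-m2.

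Of 8 tested transcripts whose exons Esrp proteins choose, 1 was called higher in each subline and none lower, with medians of 0.05 for D2A1-m1 and 0.07 for D2A1-m2. That was Cd44, a hyaluronan receptor, which rose by 0.95 in D2A1-m1 and by 1.103 in D2A1-m2 (limma, adjusted p = 0.0055 and 0.00149). The other Cd44 probes had differences of 0.83 and 0.46 in D2A1-m1 and of 0.80 and 0.70 in D2A1-m2. Fgfr2, a growth factor receptor, was detected on a single D2A1 array and was not called, and neither were Ctnnd1 (-0.13 in D2A1-m1 and -0.06 in D2A1-m2), which encodes p120 catenin, or Enah, which was detected on a single D2A1-m2 array. These probes give total signal and do not resolve the epithelial from the mesenchymal exons. Among 8 other splicing regulators of epithelial exons, Qk, the RNA-binding protein quaking, rose by 1.54 in D2A1-m1 (limma, adjusted p = 0.00112). The Qk call was lost in 3 of 24 alternatives, among them the deposited processed values and the methods' t-test after Benjamini-Hochberg. Mbnl1 rose by 0.76 and Rbm47 by 0.84 in D2A1-m2 (limma, adjusted p = 0.00462 and 0.0179). Without D2A1 replicate 3 neither was called, and Rbm47 lost its call without any one D2A1-m2 array too (differences of 0.60 to 0.94 for Mbnl1 and 0.62 to 1.03 for Rbm47 with 1 array left out, limma adjusted p up to 0.057 and 0.0937). The call of Cd44 in D2A1-m1 was lost without D2A1-m1 replicate 1 (0.79 to 1.09 with 1 array left out, adjusted p up to 0.0957) and with the probe of highest mean. The medians of the 8 other splicing regulators were 0.18 in D2A1-m1 and 0.29 in D2A1-m2.

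**Figure D5:**
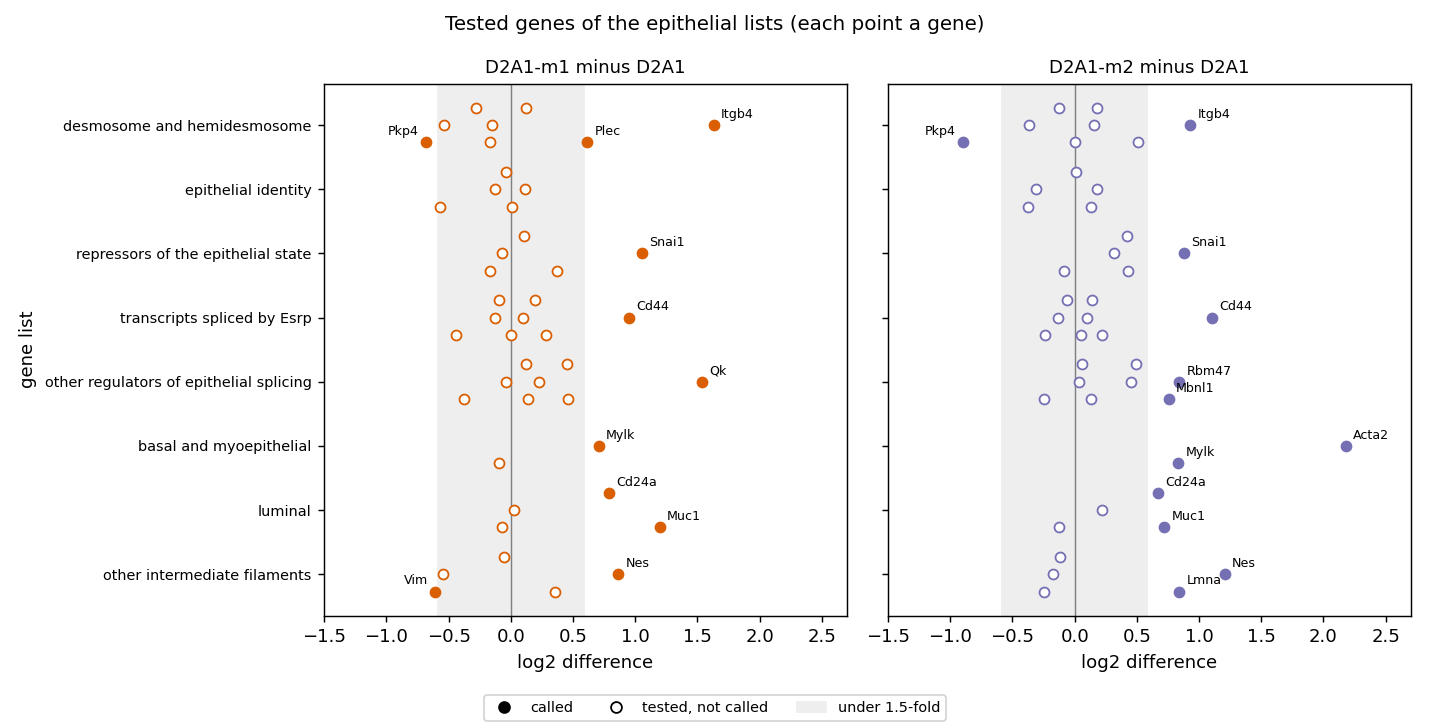
Log2 difference from D2A1 of every tested gene in 8 lists of epithelial, filament and splicing genes, for D2A1-m1 (left) and D2A1-m2 (right); filled points with names were called and the grey zone is under 1.5-fold. Called genes are few in each list, and no gene of the epithelial identity list was called.

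Lineage genes outside the keratins were mostly undetected too. Of 8 basal and myoepithelial genes 2 were tested, Mylk and Acta2. Mylk, a kinase that activates myosin, rose by 0.71 in D2A1-m1 and by 0.83 in D2A1-m2 (limma, adjusted p = 0.016 and 0.00425). Acta2, smooth muscle actin, rose by 2.18 in D2A1-m2 (limma, adjusted p = 0.00178) and was at -0.09 in D2A1-m1. The normalized level of Acta2 ranged from 7.34 to 9.60 over the D2A1 arrays, and its call in D2A1-m2 was lost in batch 1 alone. Mylk lost its call in D2A1-m1 without D2A1 replicate 3 or either D2A1-m1 array (0.50 to 0.83 with 1 array left out, limma adjusted p up to 0.138). Of 11 luminal genes on the array 4 were tested and 2 were called higher in each subline. Over all tested genes 7.72% were called higher in D2A1-m1 and 8.87% in D2A1-m2. The luminal medians were 0.41 (D2A1-m1) and 0.45 (D2A1-m2). Muc1, an apical mucin, rose by 1.198 in D2A1-m1 and by 0.72 in D2A1-m2 (limma, adjusted p = 0.00155 and 0.010). Its 3 other kept probes had smaller differences, of 0.28 to 0.87 in D2A1-m1 and 0.18 to 0.39 in D2A1-m2, and its call in D2A1-m2 was lost without D2A1-m2 replicate 1 (0.46 to 1.00 with 1 array left out, adjusted p up to 0.107). Cd24a, a surface glycoprotein, was called higher in both (limma, adjusted p = 0.0176 and 0.0203) but was not detected in D2A1, and the lower limit was 1.09-fold in D2A1-m1 and under 1-fold in D2A1-m2. The Cd24a calls were lost in 11 of 23 alternatives for D2A1-m1 and in 13 for D2A1-m2, among them no batch term, both replicate blocks, each batch alone and the deposited processed values. They were also lost without D2A1-m1 replicate 1 (for D2A1-m1, 0.55 to 0.995 with 1 array left out, limma adjusted p up to 0.26), and without D2A1 replicate 3 or D2A1-m2 replicate 1 or 2 (for D2A1-m2, 0.53 to 0.80, adjusted p up to 0.0841). Of 7 p63 targets on the array only Itgb4 could be tested.

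Among other intermediate filament genes 5 of 12 were tested. Nes, the nestin gene, rose by 0.86 in D2A1-m1 and by 1.21 in D2A1-m2 (limma, adjusted p = 0.00313 and 0.000307). Vim, which encodes the mesenchymal filament vimentin, fell by 0.61 in D2A1-m1 (limma, adjusted p = 0.0112) and was at -0.17 in D2A1-m2. Lmna, a nuclear lamin, was called higher by 0.84 in D2A1-m2 (limma, adjusted p = 0.0148) by the dimmest of its 6 kept probes. The 5 other Lmna probes had differences of 0.25 to 0.63 and 2 of them were not called. The Lmna call was lost in 8 of 24 alternatives, among them the probe of highest mean and leaving out D2A1 replicate 3 or D2A1-m2 replicate 2 or 3 (0.45 to 1.11 with 1 array left out, adjusted p up to 0.134). In D2A1-m1 the call of Vim was lost without D2A1 replicate 2 or either D2A1-m1 array (-0.67 to -0.53, adjusted p up to 0.162), and that of Nes without D2A1-m1 replicate 1 (0.70 to 1.03, adjusted p up to 0.0876). The medians over these 5 were -0.05 for D2A1-m1 and -0.12 for D2A1-m2.

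Both sublines were recovered from lungs, and markers of lung cells are therefore given beside the rise of Krt8. Of 8 lung epithelial markers 7 were not detected on any array, among them Sftpc, Sftpb, Scgb1a1 and Nkx2-1, and the eighth (Ager) was not called. Their summed level was 52.1 to 71.9 in D2A1-m1, 55.4 to 62.4 in D2A1-m2 and 61.3 to 74.9 in D2A1. Of 5 mesothelial markers only Msln was detected, which rose by 1.33 in D2A1-m1 (limma, adjusted p = 0.00498) and was at -0.24 in D2A1-m2. Its call was lost without D2A1-m1 replicate 1 (1.09 to 1.58 with 1 array left out, limma adjusted p up to 0.0684). All 7 endothelial markers were undetected.

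Other markers did move with the sublines. Of 7 leukocyte markers 3 were detected and Ptprc, Itgam, Lyz2 and Cd3e were not. The summed level was 424 to 745 in D2A1-m1, 325 to 457 in D2A1-m2 and 135 to 304 in D2A1. It mostly follows Cd14, with a mean log2 level of 8.97 in D2A1-m1, 8.27 in D2A1-m2 and 7.57 in D2A1. Cd14 was called higher in D2A1-m1 by 1.28, Coro1a at least 1.69-fold in D2A1-m1 and at least 1.39-fold in D2A1-m2, and Laptm5 at least 1.49-fold in D2A1-m2. Of 8 lung fibroblast markers 3 were detected (Col1a1, Pdgfra and Pdgfrb), with a summed level of 164 to 182 in D2A1-m1, 131 to 167 in D2A1-m2 and 90.8 to 105 in D2A1, while Col1a2, Col3a1, Dcn, Lum and Tcf21 were not. Pdgfra rose by 0.77 in D2A1-m1 (its other probe had -0.34) and Pdgfrb by 0.95 in D2A1-m2, and Col1a1 was called higher in D2A1-m2 although detected on 1 array there and on none of D2A1. With 1 array left out, Pdgfra lost its call without D2A1-m1 replicate 1 (limma, adjusted p = 0.162), Pdgfrb without D2A1 replicate 3 (adjusted p = 0.125), and Col1a1 without D2A1 replicate 3 or D2A1-m2 replicate 1 or 3 (adjusted p up to 0.184). The part of such cells in the Krt8, Krt18 and Esrp2 values was not tested.

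Likeness was measured as the distance between genes in the plane of their 2 log2 differences, D2A1-m1 minus D2A1 and D2A1-m2 minus D2A1, over 9017 genes. Nearest to Krt8 were Kirrel3, a cell adhesion protein of the immunoglobulin family, Cavin1, a coat protein of caveolae, at a distance of 0.52, and Cpq, a carboxypeptidase. Kirrel3 and Cpq were not detected on any D2A1 array, so their differences are limits and their place beside Krt8 is not settled. Nearest to Krt18 were Ankrd28 (0.05), Zbtb26 (0.06) and Mfsd13a (0.07), each called lower in D2A1-m2 and not in D2A1-m1. Nearest to Esrp2 were Omd, a small proteoglycan, Cldn1, a claudin of tight junctions, and Ifi30, a lysosomal reductase, at 0.14, all called lower in both sublines. Omd and Cldn1 were not detected on any subline array, so the same holds for their place beside Esrp2. Both differences share the D2A1 arrays, and the distances describe these lines only.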

How the data were processed

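RNA of D2A1-m1 (n = 2), D2A1-m2 (n = 3) and D2A1 (n = 3) cultures was measured on bead arrays, with line, replicate number and batch taken from the labels. The deposited intensity values are mean bead signals per probe, neither background-subtracted nor normalized, and each has a deposited detection p-value against negative control beads. The authors also deposited processed values close to a log2 scale, made by a detection filter, a transform that stabilises the variance, spline normalization and removal of the batch with ComBat; they served as an alternative. The submitters' notes name lumi without its version.

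Here limma 3.58.1 in R 4.3.3 applied neqc (normexp from the detection p-values, offset 16, quantile, log2). Of 45281 probes, 34885 name 1 gene, 18 several and 10378 are unnamed here. Kept were 16462 probes detected on at least 1 array, and for each of 9017 genes the probe of largest interquartile range. The fit had terms for line and batch (4 residual and 5.23 prior degrees of freedom), and was tested on simulated data. Where no array of the dimmer line detected a probe, the fold is a limit: the brighter mean against, per array, the higher of the lowest detected signal and the probe's own. The number of arrays limits precision.

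The genes and lists were chosen with earlier results of these data known. Named were the 10 genes, the 3 nearest genes of each one called, called genes of the lists (all if at most 5, otherwise the 3 largest), a fixed set of keratins, repressors and splicing targets, and the chromosomal neighbours of Krt8, added later. Alternatives covered background, normalization, filter, probe choice, batch, replicate number, prior, test and each array.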

Additional observations from a re-analysis of the deposited data

Results flagged for a closer look

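None of the keratins, Esrp genes or Trp63 met a criterion for a closer look, and groups of at most 3 arrays allow no check for outlying arrays. Among the other genes named, 7 differed between the sublines by the test of D2A1-m1 against D2A1-m2 itself (limma, adjusted p under 0.05 and at least 1.5-fold). Higher in D2A1-m1 than in D2A1-m2 were the splicing regulator Qk by 1.04 (adjusted p = 0.028), the mesothelial marker Msln by 1.57 (adjusted p = 0.0107) and the platelet-derived growth factor receptor gene Pdgfra by 0.89 (adjusted p = 0.0189) on the log2 scale, although the other Pdgfra probe had -0.17. Lower in D2A1-m1 than in D2A1-m2 were Acta2, with a difference of -2.28 (limma, adjusted p = 0.0117), Fn1, which encodes fibronectin, with -1.40 (adjusted p = 0.0161, other probe -0.53 and not called), and the plakophilin gene Pkp2, with -0.72 (adjusted p = 0.0168). Laptm5, a lysosomal protein of blood cells, was not detected in D2A1-m1 and was at least 1.56-fold lower there than in D2A1-m2 (fitted difference of -1.58, adjusted p = 0.00164). With 1 array left out, 6 of the 7 lost their call at least once. Leaving out either D2A1-m1 array ended all 6 calls, as did leaving out D2A1-m2 replicate 2 or 3, and leaving out D2A1-m2 replicate 1 ended those of Msln, Pdgfra and Pkp2. The differences were then -2.65 to -2.13 for Acta2, -1.68 to -1.17 for Fn1, 0.93 to 1.24 for Qk, 1.33 to 1.64 for Msln, 0.76 to 1.04 for Pdgfra and -0.84 to -0.57 for Pkp2 (limma, adjusted p up to 0.128, 0.171, 0.227, 0.141, 0.207 and 0.265 in that order). With no batch term Acta2, Fn1, Qk, Pdgfra and Pkp2 were not called. Pkp2 lost its call in 13 of 24 alternatives in all, among them the probe of highest mean. Laptm5 kept its call with any 1 array left out and lost it in batch 1 alone, on the deposited processed values and by the methods' t-test.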

How the results depend on the processing

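Across 25 alternatives none of the 15 comparisons of the 5 tested genes changed direction where called. Krt8 stayed called against D2A1 in every one but the methods' t-test at its threshold for D2A1-m1. Its differences were 1.77 to 3.43 in D2A1-m1 and 1.91 to 3.53 in D2A1-m2, the lowest on the deposited processed values. The methods' t-test was run on the values normalized here with the batch removed. By its own t-test on its processed values, the study lists Krt8 among the top genes higher in both sublines. For D2A1-m1 against D2A1, where 2 genes were called, 1 was called on the deposited processed values and 1 by the methods' t-test after Benjamini-Hochberg. At the methods' threshold that test called 0, and leaving out a single D2A1 or D2A1-m2 array kept 2. For D2A1-m2 against D2A1, where 3 were called, 2 were called in batch 1 alone, 2 on the deposited processed values, 2 by the methods' t-test at its threshold and 5 in batch 2 alone, and 3 to 4 without single arrays (the fourth was Trp63 without D2A1-m2 replicate 1, at -0.68). For D2A1-m1 against D2A1-m2, where 0 were called, Krt18 was called with no background correction (1 gene), an offset of 50 (1 gene), and a trended and robust prior (1 gene). Leaving out single arrays gave 0 to 1, the call of Krt18 coming without D2A1 replicate 2 (adjusted p = 0.0465) or D2A1 replicate 3 (adjusted p = 0.0462). Deviations of same-numbered arrays from their line means had r of -0.30 to 0.71, and of -0.43 to 0.32 with the batch removed. Centring on line means makes the 2 D2A1-m1 arrays mirror each other, so these values cannot decide whether the numbers pair samples. The arrays were not taken as pairs. With the replicate block and batch term together 1 was called (Krt18, adjusted p = 0.026), and the block in place of the batch called 2, 3 and 0 genes in the order above; the block changed no other call of these genes. In batch 1 alone Krt18 lost its call in D2A1-m2 (adjusted p = 0.235) and Esrp2 its call in D2A1-m1 (adjusted p = 0.103). In batch 2, with 1 array each of D2A1-m1 and D2A1, Krt18 was at -0.73 in D2A1-m1. The causes were not tested. Esrp2, Krt7 and Trp63 lay near background, which limits their sizes.

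Over all genes, 1313, 1462 and 385 were called in these 3 comparisons. Batch 1 alone gave 168, 122 and 0, and the deposited processed values 359, 330 and 93. The methods' t-test at its threshold, on the values normalized here, gave 212, 483 and 65, which are not the study's own counts. No batch term left 70 calls between the sublines, and a replicate block without the batch 97, against 385. Leaving out D2A1-m1 replicate 1 or 2 left 498 or 717 calls between D2A1-m1 and D2A1 and 50 or 32 between the sublines, where leaving out D2A1-m2 replicate 1, 2 or 3 left 151, 88 or 85.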
